A study of Mus musculus with 6 samples.

Results

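The cytosolic ribosomal protein genes were examined by RNA-seq of bone marrow hematopoietic stem cells, which sustain the whole blood system, in wild-type (WT) and Mcph1-/- animals. Members were taken by symbol from the table of gene values: every row named as a small subunit protein (Rps or Rpsa) or a large subunit protein (Rpl or Rplp0 to Rplp2), with paralogues ending in a, a1, x, l or l1 and without symbols ending in -ps and a number. This gave 80 of the 11108 listed genes, of which 33 belong to the small and 47 to the large subunit. In the GENCODE annotation 78 of them are protein-coding, and 2, Rpl6l and Rps4l, are annotated as processed pseudogenes although their symbols match. Rpl24 and Rpl41, and the paralogues Rpl3l, Rpl39l and Rpl10l, have no values here, while others such as Fau, Rpl36al and Rack1 are listed but fall outside the naming rule.

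The cytosolic ribosome is built from ribosomal RNA and one copy of most of these proteins. The small subunit decodes the messenger RNA, and the large subunit forms the peptide bond and holds the exit tunnel for the new chain. Many of the mRNAs begin with a terminal oligopyrimidine tract, a stretch of C and T bases through which mTORC1 signalling controls their translation. Hematopoietic stem cells are known for a low rate of protein synthesis, and inherited loss of 1 copy of several ribosomal protein genes causes Diamond-Blackfan anaemia. Ribosomal protein genes have also left many processed pseudogenes, intronless copies made by reverse transcription of their mRNAs.

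The comparison had 3 WT and 3 Mcph1-/- libraries, with no treatment. Mcph1 encodes microcephalin, a protein of DNA damage signalling and chromosome condensation. Each library was made by Smart-seq2, which copies whole transcripts from very few cells, from 200 cells sorted as lineage-negative, Sca-1 and c-kit positive, CD34 negative and CD150 positive. The labels give no age or sex and do not describe the Mcph1 allele. They also leave unsaid whether each library stands for a mouse of its own, so the p-values cover the spread among libraries only, and that spread may be technical.

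Values are normalised read counts, the reads of a gene divided by 1 size factor per library. Libraries held 8102605 to 10455908 reads over the listed genes. Mcph1 itself had 160, 341 and 34.4 normalised read counts in the WT libraries (replicates 1, 2 and 3, the order used throughout) and 428, 37.7 and 234 in the Mcph1-/- libraries, so its level did not separate the genotypes. Whether the reads lie outside the altered part of the gene was not tested, and Mcph1-/- here means the libraries so labelled. All 8 stem cell markers examined, among them Kit and Mecom, were listed, with summed values of 13426 to 16057 in WT and 10389 to 11855 in Mcph1-/-. By log2 fold change 2 were higher and 6 lower in Mcph1-/-. Of 8 neutrophil markers, 6 were listed and summed to 52138 to 65421 in WT and 296 to 13266 in Mcph1-/-. By log2 fold change 1 was higher and 5 lower in Mcph1-/-. The highest Mcph1-/- sum, in replicate 3, was mostly Elane (8095) and Mpo (4856). In WT both were highest in replicate 1 (3614 and 5959). The 9 erythroid markers summed to 2551 to 19731 in WT and 27917 to 35614 in Mcph1-/-, but not all in 1 direction: 6 were higher and 3 lower in Mcph1-/-. Most of the Mcph1-/- sum was Car1, at 23716 to 31845, while the globin Hba-a1 had 581, 251 and 8516 in WT and 55.0 to 185 in Mcph1-/-. Monocyte and macrophage markers (2 of 4 listed) summed to 7561 to 12364 and 4400 to 4695. Megakaryocyte markers (3 of 3) summed to 1057 to 4470 and 577 to 1762, and B cell markers (3 of 4) to 878 to 1829 and 374 to 2472. No T cell or stromal marker of the 3 examined for each is listed. What part these cell type markers have in the ribosomal protein values was not tested. In these bulk samples, fewer cells of a type and less RNA per cell cannot be told apart.

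Ribosomal protein genes as a group had nearly the same levels in both genotypes. The members together held 2.84, 2.68 and 2.30 percent of the reads in WT and 2.79, 2.53 and 2.72 percent in Mcph1-/-. The groups overlapped, with means of 2.61 ± 0.279 percent in WT and 2.68 ± 0.136 percent in Mcph1-/- (SD, n = 3). WT replicate 3 had the lowest share and WT replicate 1 the highest. The difference of 0.072 percentage points became -0.081 without WT replicate 3. The small subunit genes held 1.40 ± 0.187 percent in WT and 1.40 ± 0.0827 percent in Mcph1-/-, and the large subunit genes 1.21 ± 0.0925 and 1.28 ± 0.0586 percent (SD, n = 3).

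All 80 members passed the filter on low values, a mean of at least 10, and were tested among 10846 genes by limma-trend on log2(value + 1). No member passed an adjusted p of 0.05, and 0.0369 percent of all genes tested did (4 of 10846). At an unadjusted p under 0.05 there were 2 members, Rpl8 and Rpl14, beside 7.71 percent of all genes. edgeR's quasi-likelihood test on the recovered reads also called none, beside 0.0184 percent of all genes, and had 2 members under 0.05 unadjusted, beside 5.47 percent. limma-voom called none, beside 0.00922 percent, and had 3 members under 0.05 unadjusted, beside 8.58 percent. DESeq2 called none of the members and 2.16 percent of all genes, and had 6 members under 0.05 unadjusted (among them Rpl14, Rpl8, Rpl17, Rpl27 and Rpl15) beside 10.9 percent. Its smallest adjusted p for a member was 0.0531, for Rpl14.

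By limma, 43 members were higher and 37 lower in Mcph1-/- libraries. Their median log2 fold change was 0.030, beside 0.076 over all genes tested. Of the members, 38 lay within 0.25 and 65 within 0.5 log2 units of 0, and the log2 fold changes ran from -2.21 for Rpl17 to 1.71 for Rps13. The 6 members beyond 1 log2 unit (Rpl17, Rpl9, Rpl23, Rpl10, Rps6 and Rps13, named after their values were seen) all had low read counts. For Rpl10 the log2 fold change was 1.24, though its mean value was 112 in WT and 78.9 in Mcph1-/-. Directions counted here are those of the mean log2 values. Small subunit genes had a median of 0.041, with 21 higher and 12 lower. Large subunit genes had a median of -0.039, with 22 higher and 25 lower. Without WT replicate 3 these medians were -0.052 and -0.12, and the median of all members was -0.083.

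**Figure D1:**
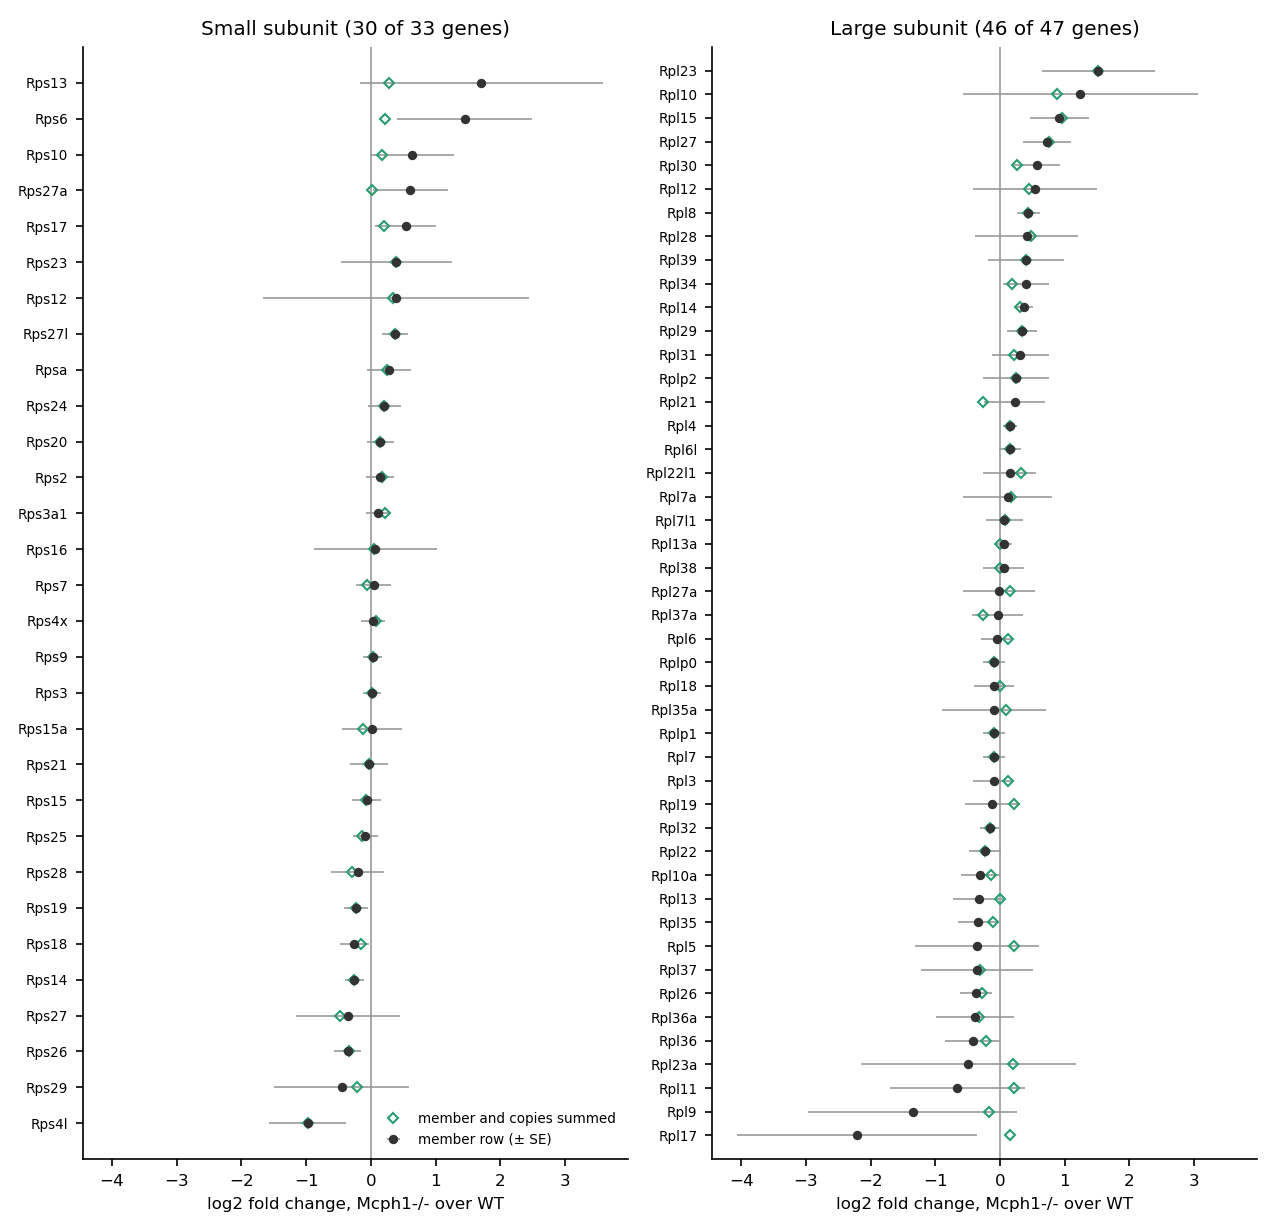
Log2 fold change of 76 of the 80 ribosomal protein genes, Mcph1-/- over WT, by subunit (horizontal axis, log2 units, 3 libraries per genotype; vertical axis, genes ordered by their fold change). Filled points with bars are the member's own row and its standard error from limma, and open diamonds are the values after the listed copies of the gene were added; most points lie near 0, and the widest bars belong to Rps12 (0.39 ± 2.05), Rps13 (1.71 ± 1.88) and Rpl17 (-2.21 ± 1.86).

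The spread between libraries of a genotype was compared in classes of level. Among the 33 members with a mean normalised read count of at least 1000, the median residual SD of log2 values was 0.198, beside 0.327 over the 2027 genes of that class. Below 1000, it was 0.40 for 47 members and 1.15 over all genes. The classes are not matched in level: the members' median of mean values was 3086 beside 1817 in the upper class and 301 beside 205 in the lower, and spread was smaller at higher levels. These are descriptions, with no test. Libraries of 1 genotype still differed in common: WT replicate 3 held the lowest value of 31 of the 80 members (38.75 percent, beside 19.1 percent of all genes tested), and WT replicate 1 the highest of 26 (32.5 percent, beside 19.6 percent). The median member deviated by -0.13 log2 units in WT replicate 3, beside 0.12 for the median of all genes tested. In WT replicate 1 it deviated by 0.14, beside 0.10. What set these libraries apart was not tested.

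**Figure D2:**
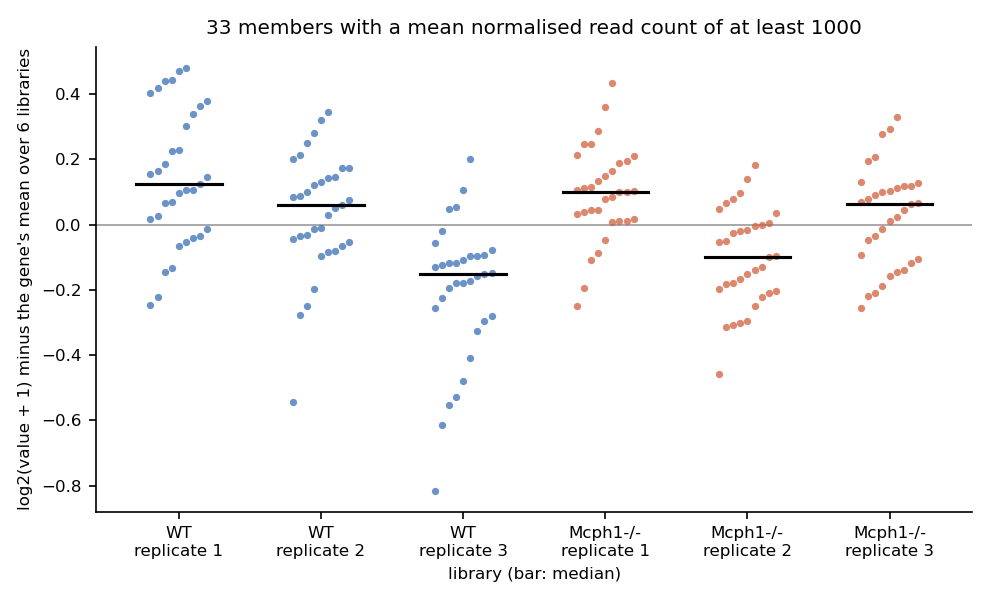
Deviation of each of the 33 ribosomal protein genes with a mean normalised read count of at least 1000 from its own mean over the 6 libraries (vertical axis, log2 units; 1 column per library; points are genes and bars are medians). The medians of WT replicates 1 and 3, at 0.12 and -0.15, are the farthest apart, and they belong to 1 genotype.

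Levels differed greatly between members, which in cells are needed in nearly equal numbers. Per kilobase of exon, the mean normalised read count ran from 9.34 for Rpl17, a protein of the tunnel exit, to 17359 for Rpl32. Among the next highest was Rpl4 (12118), whose protein lines the exit tunnel. After Rpl17, the lowest were Rpl23a (13.1), which sits at the tunnel exit and receives the signal recognition particle, and Rps13 (17.2). By the length of the principal transcript, Rps14 and Rpl32 were highest and Rpl17, Rpl23a and Rps12 lowest.

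The low rows were mainly those whose coding sequence also stands elsewhere in the genome. Each coding sequence was searched in all other annotated transcripts for windows of 100 bases that match exactly. Genes that overlap the member on its chromosome were left out. In total 461 other genes were kept as copies, 451 of them annotated as pseudogenes, and 169 of these have values here, 162 with a single exon. Copies were found for 71 members, and listed ones for 65. For 23 of the 78 protein-coding members every coding window stands in another gene, as for Rps27 and Rpl5. For 6 members none does, among them Rpl22, Rpl32, Rps21, Rps27l and Rps3. Rpl32 does share an exact window with an overlapping gene, which this count leaves out.

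Sequences of 3 such pairs show what a member shares with its copy. Each is a stretch of 60 bases of a member's coding sequence across an exon junction, with the bases on each side of the junction in capitals, beside the matching stretch of its intronless copy, from GENCODE vM21 transcripts on mm10, the build of all positions given here. In the members an intron of 148 (Rps27), 371 (Rps6) or 82 (Rpl5) bases divides the capitals, and in the copies nothing does. The members' stretches lie at chr3:90213015-90213222 (minus strand), chr4:86856327-86856757 (minus) and chr5:107901910-107902051 (plus), in exons of the coding sequence. The copies lie at chr9:114982563-114982622 (minus), chr2:75191655-75191714 (minus) and chr7:114706061-114706120 (minus).
Rps27: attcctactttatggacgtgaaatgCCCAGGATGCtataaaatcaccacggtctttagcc
Rps27rt: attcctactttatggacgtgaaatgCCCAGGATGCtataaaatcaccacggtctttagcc
Rps6: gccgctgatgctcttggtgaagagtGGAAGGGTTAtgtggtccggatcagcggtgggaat
Rps6-ps4: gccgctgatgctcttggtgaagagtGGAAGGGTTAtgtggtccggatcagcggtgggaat
Rpl5: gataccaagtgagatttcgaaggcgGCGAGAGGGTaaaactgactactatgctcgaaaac
Gm15500: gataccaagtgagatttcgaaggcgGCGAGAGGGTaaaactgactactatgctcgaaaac

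Rplp0 is a contrasting case in sequence, since its copy Gm8730 differs from it at 12 of 951 coding bases (98.74 percent identity). Gm8730 still held more reads, with a mean of 16010 beside 10865 on Rplp0, whose row took 40.4 percent of the pair's reads. The capital marks the 1 base that differs in a stretch of 60 bases, at chr5:115559876-115560787 (plus strand, with an intron of 852 bases inside) and chr8:102865698-102865757 (minus).
Rplp0: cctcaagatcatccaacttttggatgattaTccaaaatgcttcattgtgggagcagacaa
Gm8730: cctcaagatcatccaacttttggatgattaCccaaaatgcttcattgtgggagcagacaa

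Across the 78 protein-coding members, the level per kilobase was ranked inversely to the share of the coding sequence found in other genes (Spearman's rho -0.71, given as a description, since the genes share the same 6 libraries). The 13 members with up to 20 percent of their coding windows in other genes had a median of 4954 normalised read counts per kilobase of exon. The 17 members from 20 to 60 percent had 1002, the 25 from 60 to under 100 percent had 378, and the 23 at 100 percent had 91.7. The members with the most copied sequence were also the least read and the most variable: the median residual SD was 0.198 log2 units in the first of these classes and 0.563 in the last. Exceptions were Rpl39, a small protein of the exit tunnel, at 160 per kilobase with 16.7 percent of its windows in other genes, and Rpl38 at 1520 with 100 percent.

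**Figure D3:**
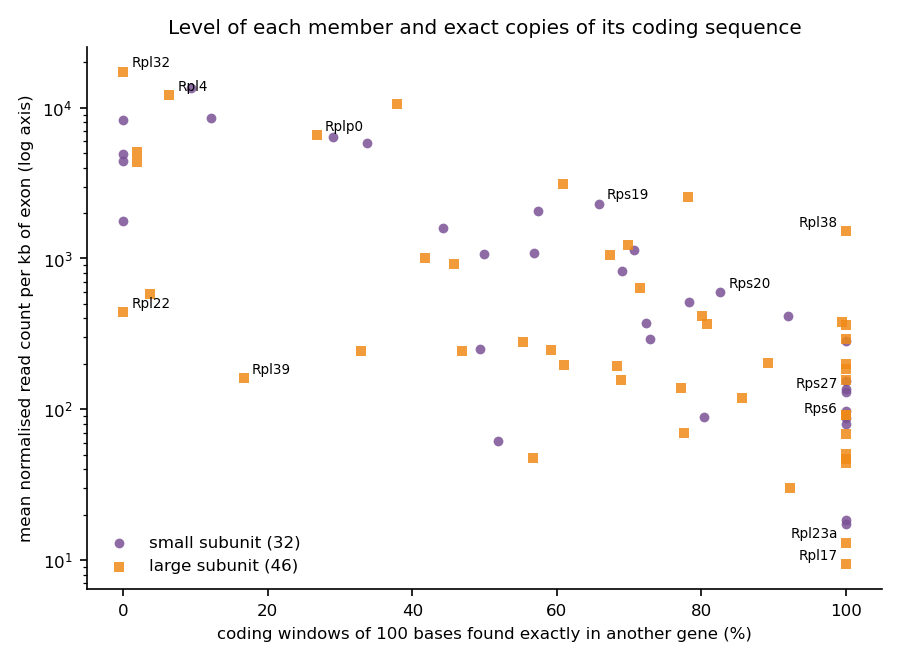
Mean normalised read count per kilobase of exon over the 6 libraries (vertical log axis) against the percentage of 100-base coding windows found exactly in another gene (horizontal axis), 1 point per protein-coding member, circles for the small and squares for the large subunit. Genes that overlap the member are left out of the percentage. Members with few copied windows, such as Rpl32 at 17359, lie high, and members at 100 percent reach down to Rpl17 at 9.34.

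Reads on the copies outnumbered those on many members. In 52 of the 78 protein-coding members the copies held more reads than the member's own row, in 24 the row held under 10 percent of the summed reads, and in 15 under 5 percent. Summed over each library, the 168 listed copies that are not members held 4.67, 4.35 and 3.93 percent of reads in WT and 4.48, 4.03 and 4.11 percent in Mcph1-/-, more than the members in every library. Members and copies together held 6.92 ± 0.648 percent in WT and 6.88 ± 0.356 percent in Mcph1-/- (SD, n = 3), with overlapping groups. What part of a copy's reads came from the member's mRNA was not tested.

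The gap was widest for Rps27, a zinc-binding small subunit protein on chr3:90212522-90213651. Its row held 146, 135 and 173 normalised read counts in WT and 143, 89.4 and 128 in Mcph1-/-, while the copy Rps27rt, a single-exon gene annotated as protein-coding, held 18354, 16957 and 16502 in WT and 14939, 11402 and 11025 in Mcph1-/-. The row of Rps27 thus took 0.905 percent of the pair's reads. The same held for Rps6, the small subunit protein phosphorylated by S6 kinases, with a mean of 139.6 beside 14357 on Rps6-ps4. Rps16, a small subunit protein near the decoding site, and Rps29, another zinc-binding protein, took 0.807 and 0.896 percent of the reads of their families. By mean value the highest member, Rpl4, ranked 14 of all 11108 listed genes.

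**Figure D4:**
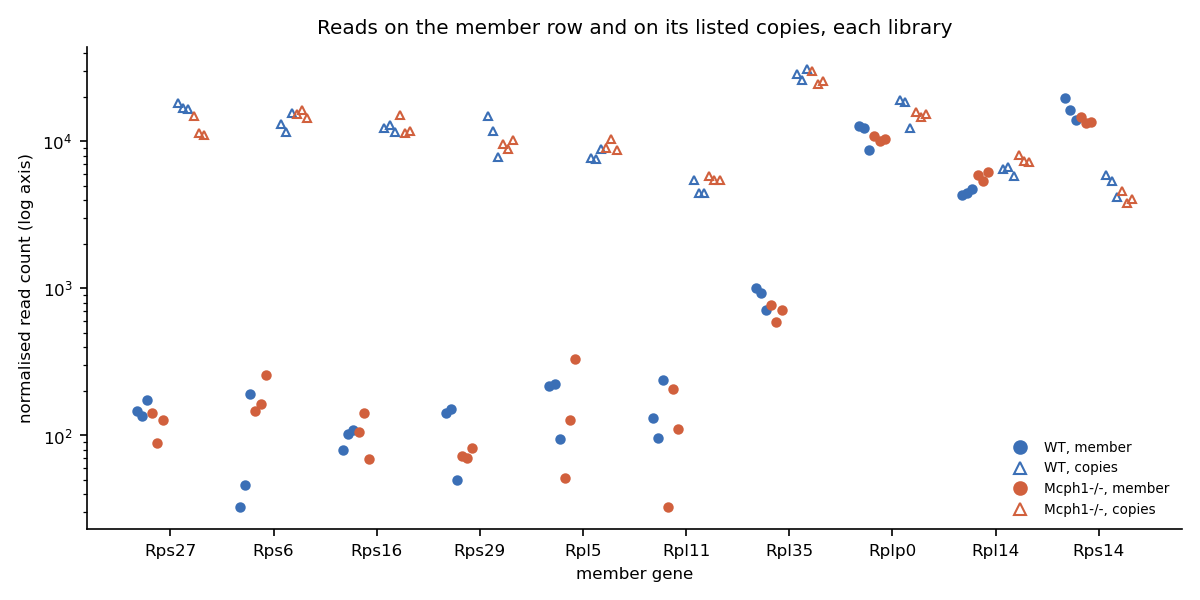
Normalised read count (vertical log axis) of 10 ribosomal protein genes (filled circles) and of their listed copies summed (open triangles) in each library, blue for WT and orange for Mcph1-/-. For Rps27, Rps6, Rps16, Rps29, Rpl5 and Rpl11 the copies lie far above the member in all 6 libraries, while Rps14 lies above its copy.

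The large subunit genes with the smallest p were higher in Mcph1-/- libraries. Rpl8, which lies beside the peptidyl transferase centre (chr15:76904078-76906314), had 6451, 6447 and 4677 normalised read counts in WT and 7486, 7652 and 8474 in Mcph1-/-. The 3 Mcph1-/- libraries lay above all 3 WT libraries, and WT replicate 3 was lowest. In limma it gave 0.44 ± 0.17 log2 units (SE; adjusted p = 0.626), and the search found no listed copy of it. Rpl14, at the surface of the large subunit (chr9:120571444-120574654), had 4327, 4482 and 4761 in WT and 5938, 5379 and 6228 in Mcph1-/-. The groups did not overlap, and the log2 fold change was 0.37 ± 0.14 (SE; limma adjusted p = 0.626). Its copy Rpl14-ps1 had 6465, 6670 and 5848 in WT and 8089, 7351 and 7236 in Mcph1-/-, also without overlap.

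Rpl15, a large subunit protein affected in some cases of Diamond-Blackfan anaemia (chr14:18267823-18271391), had 363, 206 and 384 in WT and 417, 766 and 609 in Mcph1-/-. The groups did not overlap but came close, and the log2 fold change was 0.92 ± 0.46 (SE; limma adjusted p = 0.662). Rpl27, also a Diamond-Blackfan gene, had 437, 488 and 329 in WT and 684, 546 and 851 in Mcph1-/-, again without overlap, with a log2 fold change of 0.72 ± 0.37. Rpl23, which binds the p53 inhibitor Mdm2 when free of the ribosome, had 38.0, 176 and 306 in WT and 282, 326 and 533 in Mcph1-/-. Its groups overlapped, and its log2 fold change of 1.51 ± 0.87 became 0.65 without WT replicate 1. Rpl4, the most read member, had 23426, 22906 and 22723 in WT and 25749, 25083 and 26039 in Mcph1-/-, a narrow spread without overlap and a difference of 0.15 ± 0.10 log2 units (SE; limma, adjusted p = 0.706).

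In all, 7 members (Rpl4, Rpl8, Rpl14, Rpl15, Rpl27, Rpl30 and Rps10) had all Mcph1-/- libraries above all WT libraries, or 8.75 percent, beside 7.4 percent of all genes tested. Another 2, among them Rps26, had them all below, or 2.5 percent, beside 6.8 percent. The first share is near the background, so nothing is read from it for the members as a group.

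Among members lower in Mcph1-/- libraries, the smallest p belonged to small subunit genes. Rps26, at the mRNA exit channel and a Diamond-Blackfan gene (chr10:128624534-128626747), had 2187, 1758 and 1708 in WT and 1532, 1416 and 1429 in Mcph1-/-. Its groups did not overlap, the log2 fold change was -0.36 ± 0.21, and it was -0.33 with its copy added.

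Rps14, lost on 1 chromosome in the myelodysplastic syndrome with a deletion of the long arm of human chromosome 5, was one of the most read members. It had 19602, 16400 and 13897 in WT and 14587, 13323 and 13528 in Mcph1-/-. The groups overlapped only through WT replicate 3, and the log2 fold change was -0.25 ± 0.15, or -0.13 without WT replicate 1. Rps4l, a processed pseudogene of the X-linked Rps4x, had 513, 321 and 340 in WT and 121, 330 and 183 in Mcph1-/-, with overlapping groups and a log2 fold change of -0.97 ± 0.60. Rpl26, a protein at the tunnel exit, ran from 1155 to 1825 in WT and from 1101 to 1217 in Mcph1-/- (log2 fold change -0.37 ± 0.25), with overlapping groups.

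Rpl17 and Rps12 had libraries without reads, where up to 3 reads remain possible by counting error, a value of 2.74 to 3.25 in those libraries. Rpl17 was at 0, 16.5 and 53.7 in WT and at 0, 2.46 and 1.79 in Mcph1-/-, so its log2 fold change of -2.21 ± 1.86 rests on values near that floor. Its 4 copies held 943 to 1255 in WT and 1227 to 1337 in Mcph1-/-. Rps12 was at 69.4, 83.5 and 0 in WT and at 31.0, 27.9 and 13.4 in Mcph1-/-.

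Rpl5 and Rpl11 form, with the 5S ribosomal RNA, the particle that binds Mdm2 and so stabilises p53 when ribosome assembly is disturbed. The row of Rpl5 held 217, 223 and 94.1 in WT and 51.1, 127 and 330 in Mcph1-/-, with wide overlap. Its family, the row and its copies summed, held 7940, 7758 and 8953 in WT and 9005, 10580 and 9087 in Mcph1-/-. The summed values did not overlap, and differed by 0.22 ± 0.14 log2 units (SE; limma, adjusted p = 0.698). Rpl11 summed with its copies also did not overlap, at 4554 to 5568 in WT and 5592 to 5868 in Mcph1-/-, with 0.21 ± 0.15. On its own row, Rpl11 ran from 95.8 to 238 in WT and from 32.8 to 206 in Mcph1-/-.

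The stalk of the large subunit, which recruits the GTPases of translation, is built from Rplp0 and dimers of Rplp1 and Rplp2. Rplp0 had 12648, 12408 and 8776 in WT and 10864, 10059 and 10436 in Mcph1-/-, and Rplp1 had 6511, 5232 and 4756 in WT and 4967, 5210 and 5154 in Mcph1-/-. In both, WT replicate 3 was lowest and the groups overlapped, with log2 fold changes of -0.091 ± 0.17 and -0.093 ± 0.16. Rplp2 ran from 228 to 714 in WT and from 430 to 704 in Mcph1-/-, also with overlap. Rps19, the gene most often affected in Diamond-Blackfan anaemia, ran from 8942 to 14280 in WT and from 9171 to 10912 in Mcph1-/- (-0.23 ± 0.19). Rps27a, made as a fusion with ubiquitin, ran from 133 to 318 in WT and from 263 to 459 in Mcph1-/- (0.61 ± 0.58), but with its copies summed the log2 fold change was 0.011.

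Paralogue pairs were compared by their levels and ratios. Rpl22, whose loss blocks development of alpha-beta T cells, ran from 1166 to 1554 in WT and from 1038 to 1319 in Mcph1-/-. Its paralogue Rpl22l1, with its copy, stood to Rpl22 in a ratio of 0.878, 0.735 and 1.42 in WT and 1.49, 1.53 and 1.27 in Mcph1-/-, which overlap through WT replicate 3. Rps27l, a p53 target gene, had 4280, 2724 and 3647 in WT and 4854, 4193 and 4555 in Mcph1-/-, with an overlap through WT replicate 1 (log2 fold change 0.37 ± 0.20). With copies summed, the ratio of Rps27l to Rps27 was 0.231, 0.159 and 0.219 in WT and 0.322, 0.365 and 0.408 in Mcph1-/-, with no overlap. Rpl7 ran from 2616 to 2893 in WT and from 2396 to 2711 in Mcph1-/-, and Rpl7l1 from 1685 to 2500 and from 1432 to 2660. Rpl3, beside the peptidyl transferase centre, ran from 574 to 755 in WT and from 565 to 719 in Mcph1-/-. Rpl39 ran from 158 to 249 and from 216 to 295, and Rpl10, which joins the large subunit late in its assembly, from 4.12 to 318 and from 29.5 to 120.

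The test was repeated with each member's reads and those of its listed copies summed into 1 value. Again no member passed the limma threshold, beside 0.0467 percent of all genes (5 of 10716), and 4 had an unadjusted p under 0.05, beside 7.67 percent: Rps27, Rpl8, Rpl14 and Rpl15. The median residual SD was 0.191 log2 units, beside 0.30 on the members' own rows. The median log2 fold change was 0.092, with 50 families higher and 30 lower. The large subunit families had a median of 0.15 (30 higher, 17 lower), which was 0.057 without WT replicate 3, and the small subunit families 0.046 (20 higher, 13 lower).

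Of the 47 large subunit families, 12 had all Mcph1-/- libraries above all WT libraries, or 25.5 percent, beside 7.42 percent of all genes tested, and 0 had them all below, beside 6.78 percent. All genes are not matched to the families in level or spread. Of the 2027 genes with a mean of at least 1000, on their own rows, 209 lay above and 222 below. The 12 families were Rpl3, Rpl4, Rpl5, Rpl8, Rpl11, Rpl14, Rpl15, Rpl19, Rpl27, Rpl28, Rpl30 and Rpl31. Without WT replicate 3, which held the lowest value of 35 of the 80 families, 15 lay above and 12 below, beside 15.9 and 14.8 percent of all genes in the same 5 libraries. Without Mcph1-/- replicate 1, 15 lay above and 7 below, beside 12.1 and 10.7 percent of all genes. Leaving out any of the other 4 libraries gave 12 to 18 above and 1 or 2 below, beside 11.3 to 13.2 and 10.7 to 12.3 percent, so the absence of families below held with all 6 libraries only. The small subunit families had 1 above and 2 below (Rps26 and Rps27).

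The smallest p among the summed families was that of Rps27. With Rps27rt added it had 18501, 17092 and 16675 in WT and 15082, 11492 and 11152 in Mcph1-/-. All 3 Mcph1-/- libraries lay below the WT libraries, with Mcph1-/- replicate 1 the closest. The log2 fold change was -0.48 ± 0.15 (SE; limma adjusted p = 0.615). Nearly all of these reads stood on Rps27rt, whose own row gave -0.48 (limma adjusted p = 0.617). DESeq2 called Rps27rt (-0.47 ± 0.14, adjusted p = 0.0297), while edgeR and limma-voom did not (adjusted p = 0.803 and 0.488).

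The other genes of ribosome production were described from fixed lists beside the members. Of their 97 tested genes limma, edgeR and limma-voom called none, beside 0.0369, 0.0184 and 0.00922 percent of all genes. In these tests 13, 12 and 14 of the 97 were under 0.05 unadjusted, beside 7.71, 5.47 and 8.58 percent of all genes. DESeq2 called 5 of the 97 (Nhp2, Npm1, Nolc1, Wdr12 and Eif5a) beside 2.16 percent of all genes. In the list of ribosomal RNA synthesis and processing, 23 of 36 genes were higher and 13 lower. Their median was 0.37 log2 units, and 10 genes were under 0.05 unadjusted, beside 7.71 percent of all genes. Its summed value was 41290 to 43018 in WT and 52307 to 57164 in Mcph1-/-, without overlap. Nhp2, a core protein of the box H/ACA particles that guide pseudouridylation, had 2671, 3370 and 2693 in WT and 4939, 5230 and 6982 in Mcph1-/- (log2 fold change 0.96 ± 0.19; limma adjusted p = 0.428). Npm1, the nucleolar chaperone nucleophosmin, had 2437, 2176 and 2628 in WT and 4027, 4052 and 3577 in Mcph1-/- (0.69 ± 0.17; limma adjusted p = 0.540). Nolc1, a nucleolar chaperone of small nucleolar particles, and Utp4, a processome protein, had log2 fold changes of 0.87 ± 0.23 and 1.37 ± 0.42. In all 4 genes the Mcph1-/- libraries lay above the WT libraries.

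The 24 tested chaperones and assembly factors of ribosomal proteins had a median of 0.18, with 18 higher and 6 lower. By limma 0 were under 0.05 unadjusted, beside 7.71 percent of all genes. Bccip, a chaperone of Rpl23, had 2170, 2311 and 2587 in WT and 3130, 2668 and 3358 in Mcph1-/- (0.37 ± 0.18), without overlap, and Grwd1, a chaperone of Rpl3, had 0.59 ± 0.34. Of 6 elongation factors 3 were higher and 3 lower. Eif5a, which relieves stalled ribosomes, had 22478, 21422 and 20266 in WT and 27419, 35860 and 30568 in Mcph1-/- (0.54 ± 0.13; limma adjusted p = 0.540), again without overlap. Eef2, the translocase, had -0.23 ± 0.16. Among 18 other mRNAs with a terminal oligopyrimidine tract, 11 were higher and 7 lower with a median of 0.084. Of these, Npm1 and Eif3e (0.45 ± 0.17) were under 0.05 unadjusted by limma, beside 7.71 percent of all genes. The lists share genes, since Npm1, Rack1 and Eef2, among others, stand in this list and in another.

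Of 16 genes of mTORC1 signalling and regulators of these mRNAs, 10 were higher and 6 lower, with a median of 0.23. Mycn, a Myc family factor that drives ribosome production, had 1749, 1474 and 1211 in WT and 510, 1204 and 580 in Mcph1-/- (-1.04 ± 0.37; limma adjusted p = 0.626). Its groups did not overlap, but Mcph1-/- replicate 2 lay just below WT replicate 3. Tsc1, an inhibitor of mTORC1, ran from 291 to 788 in WT and from 119 to 264 in Mcph1-/- (-1.35 ± 0.60), also without overlap. Others of this list were higher in Mcph1-/-, such as Deptor (1.17 ± 0.64), Rps6kb1 (0.65 ± 0.42) and Myc (0.20 ± 0.16). The 4 ribosomal protein genes outside the naming rule had a median of 0.11, and Rack1, a scaffold protein of the small subunit, had 14534, 13006 and 10973 in WT and 12947, 14022 and 13153 in Mcph1-/-. By contrast, S100a8 of neutrophils (-6.66) and Car1 of early erythroid cells (3.53) were among the 4 genes that passed the threshold.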

How the data were processed

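RNA-seq was measured in 6 libraries of sorted stem cells, 3 WT and 3 Mcph1-/-, grouped by the titles. Tools named in the submitters' processing notes, without their roles, are Trim Galore 0.6.6, HISAT2, featureCounts and DESeq2, and the build is mm10. Not given in the sources used here are the annotation, the strand setting and the treatment of reads that match several places. The authors deposited a signal, in which each library's counts had been scaled by a single size factor. Undoing that scaling gave whole reads (whole within 0.01 reads) for 100% of values. Reads totalled 8102605 to 10455908 per library. Every listed gene has reads in at least 4 libraries, so rarer genes were not analysed here. With no molecular identifiers, reads can be repeats of a molecule, so floors cover counting error only. No 2 libraries of a genotype agreed within sampling noise (chi-square per degree of freedom at least 83.02).

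Genotype was the only term of limma-trend (limma 3.58.1, R 4.3.3) on log2(value + 1), with a mean value of at least 10, Benjamini-Hochberg adjustment over 10846 genes and calls under 0.05. Each fold change is a difference of mean log2(value + 1), which can understate the change of low genes. In genes that scatter between libraries, it can also differ in size or direction from the change of the mean values, as for Rpl10. The scripts were tested on simulated data. Alternatives were edgeR 4.0.16, DESeq2 1.42.0 and limma-voom on recovered reads, another scaling, pseudocounts of 16, filters of none and 50, a replicate block and leaving out each library. Members and lists were chosen with earlier results of these data known. Named members were the 6 with the smallest p in each direction, those with a library at 0, fixed role groups, the 3 highest and 3 lowest per length, and up to 4 genes of each list with the smallest p. Some genes that this rule names are not reported here. Others named beside them were chosen after their values were seen.

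Copies were other GENCODE vM21 genes, not overlapping the member, that hold an exact window of 100 bases of its principal coding sequence. They were kept if annotated as pseudogenes or if the shared part covered at least 30% of the gene. This step, and summing copies with members, was chosen after the data were seen. With no strand setting known, 13 members that share such a window with an overlapping gene are uncertain, among them Rpl5, Rpl22l1, Rpl28, Rpl30, Rpl31, Rpl32, Rpl35, Rps10 and Rps27a.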

Additional observations from a re-analysis of the deposited data

How the results depend on the processing

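The number of genes called over the whole table was 4 (1 higher, 3 lower); it was 2 by edgeR, 234 by DESeq2 (106 higher, 128 lower), 1 by limma-voom and 1 to 4 when each library was left out in turn. No setting called a member. Of the members named for their small p, 10 are reported here, and each kept its direction in all 15 alternatives, 150 results. Not all of these could change it. The other filters and the replicate block leave a member's log2 fold change as it was, as does summing for a member without listed copies. The members were also picked by p in these same data, so the kept directions are a description only. The median of large subunit members (-0.039) became 0.15 with copies summed and ran from -0.12 to 0.068 with a library left out. Those of all members and of small subunit members ran from -0.083 to 0.092 and from -0.052 to 0.11, and the share difference from -0.081 to 0.19. Without each library in turn, 12 to 18 large subunit families lay above and 1 to 12 below. Total count scaling moved the median of all genes to 0.11 from 0.076.

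Same-numbered libraries of the genotypes did not deviate together (correlations -0.014, 0.018 and -0.030), so no pairing by number was seen. Taken over all genes tested, many of them low and variable, such correlations cannot exclude a pairing. With a replicate block, 3 genes and 0 members were called, and 0 members had an unadjusted p under 0.05. With 50-base windows, Spearman's rho of level with copied share was -0.69. Precision was poorest for low rows, with standard errors of log2 fold changes up to 2.05, for Rps12.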

Other observations

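The listed copies were also tested as genes of their own. Of the listed copies that are not members, 130 passed the filter on low values, with 67 higher and 63 lower in Mcph1-/- libraries and a median log2 fold change of 0.021. None passed the threshold by limma, edgeR or limma-voom, beside 0.0369, 0.0184 and 0.00922 percent of all genes. In these tests 2, 2 and 5 copies had an unadjusted p under 0.05, beside 7.71, 5.47 and 8.58 percent of all genes. DESeq2 called 1, Rps27rt, beside 2.16 percent, and had 8 under 0.05 unadjusted, beside 10.9 percent. The median residual SD of the copies was 0.254 log2 units. Copies filled 11 of the 100 rows with the highest mean value, and members 10. Gm2000, a single-exon gene with sequence of Rpl35, had 21262, 19675 and 25195 normalised read counts in WT and 24316, 19993 and 20805 in Mcph1-/-.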
